A study of Mus musculus with 4 samples.

Results

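The 32 genes described here encode the junctions and the identity of an epithelial cell. They comprise adhesion receptors, tight junction and desmosome proteins, epithelial transcription and splicing factors, membrane proteases with their inhibitors and secreted whey acidic proteins, and proteins of polarised traffic and ion transport. The genes were chosen by name, with earlier results of these data known, and keratins were left out. *Cd24a*, *Epcam* and *Atp1b1* are also among the genes the paper lists as changed in normal fibroblasts without *Ets2*. For each, the paper's value is from a dimmer probe set than the one read here. Each of the 32 was read from its brightest probe set, by mean over the 4 arrays, among those annotated to that gene alone. All 32 were among the 18194 genes with such a probe set, and together they had 63 probe sets. A single probe set was present for 18 of them and several for 14.

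Epithelial cells are joined into a sheet by 3 kinds of junction. Adherens junctions hold neighbours together through cadherins, tight junctions seal the space between cells with claudins and occludin, and desmosomes anchor the intermediate filaments, which in epithelium are keratins. Fibroblasts make collagen-rich matrix, carry vimentin filaments and normally lack most of these proteins, so in mammary stroma the genes serve as markers of epithelium.

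The data comprise 4 Affymetrix mouse genome arrays, 1 per genotype, with RNA from second-passage primary mammary fibroblasts of female FVB/N mice aged 16 weeks. Normal fibroblasts with *Ets2* came from Ets2db/loxP mice, and normal *Ets2* null fibroblasts from FspCre;Ets2db/loxP mice. *ErbB2* fibroblasts with *Ets2* came from ErbB2;Ets2db/loxP mice, and *ErbB2* fibroblasts without it from ErbB2;Fsp-cre;Ets2db/loxP mice. All 4 groups, controls included, therefore carried 1 conventional knockout allele (db) and 1 loxP allele of *Ets2*, an ETS family transcription factor. Cre was driven by the *Fsp* promoter, and every *Ets2* null array also carried Cre, so that the effects of the transgene and of the deletion cannot be told apart. The *ErbB2* oncogene was driven by the MMTV promoter in mammary epithelium, not in the fibroblasts. Stromal cells were separated from epithelial fragments by gravity before they were plated, and the number of mice behind each array was not found in the labels or methods.

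The deposited values were RMA-normalised log2 intensities, with array medians between 5.51 and 5.54. No array had a replicate, so differences carry no error and no test, and they were read against the spread of all genes. From the lower to the upper quartile, all genes differed by -0.14 to 0.15 between the normal arrays and by -0.15 to 0.22 between the *ErbB2* arrays (log2, *Ets2* null minus *Ets2* present). A difference of over 2 log2 units, which is 4-fold and the size the study used for these arrays, was counted as a call, with 2-fold beside it. The values carry no detection call, so a level under log2 6, which 42.5% to 42.8% of probe sets reached, was taken as not shown to lie above background. *Ets2* itself read 8.14 and 8.35 on the normal arrays with and without *Ets2*, and 8.34 and 8.31 on the *ErbB2* arrays. Whether this probe set covers the deleted part of the gene is unknown here, so it does not check the genotype labels. Fibroblast transcripts such as collagens and vimentin were present, since at least 16 of 17 such markers reached log2 6 on each array. At least 12 of 14 myeloid markers did so too, so this count does not show the cultures to be free of other cells. The paper reports staining of cultured mammary fibroblasts for enrichment of fibroblasts and efficient *Ets2* knockout, and a western blot for loss of ETS2 protein. Its figures for these show *PyMT* cultures, which are not among these arrays.

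The epithelial genes were mostly low in these cultures, and they were higher on 2 of the 4 arrays. Their median log2 level on the normal arrays was 5.49 with *Ets2* and 6.12 without. On the *ErbB2* arrays it was 6.005 with *Ets2* and 5.29 without. A level of log2 6 was reached by 9, 18, 16 and 10 of the 32 genes, in the same order. Over all 4 arrays, 20 genes reached it at least once and 12 never did. The highest of a gene's 4 values fell on the normal *Ets2* null array for 12 genes and on the *ErbB2* array with *Ets2* for 13. The lowest value fell on the *ErbB2* *Ets2* null array for 17. No share over all genes was taken for these ranks. For 20 of the 32 genes the 4 values spanned no more than 2-fold, so the ranks often rest on small differences. Because RNA came from whole cultures, more cells that express a gene and more RNA per cell cannot be told apart.

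**Figure D1:**
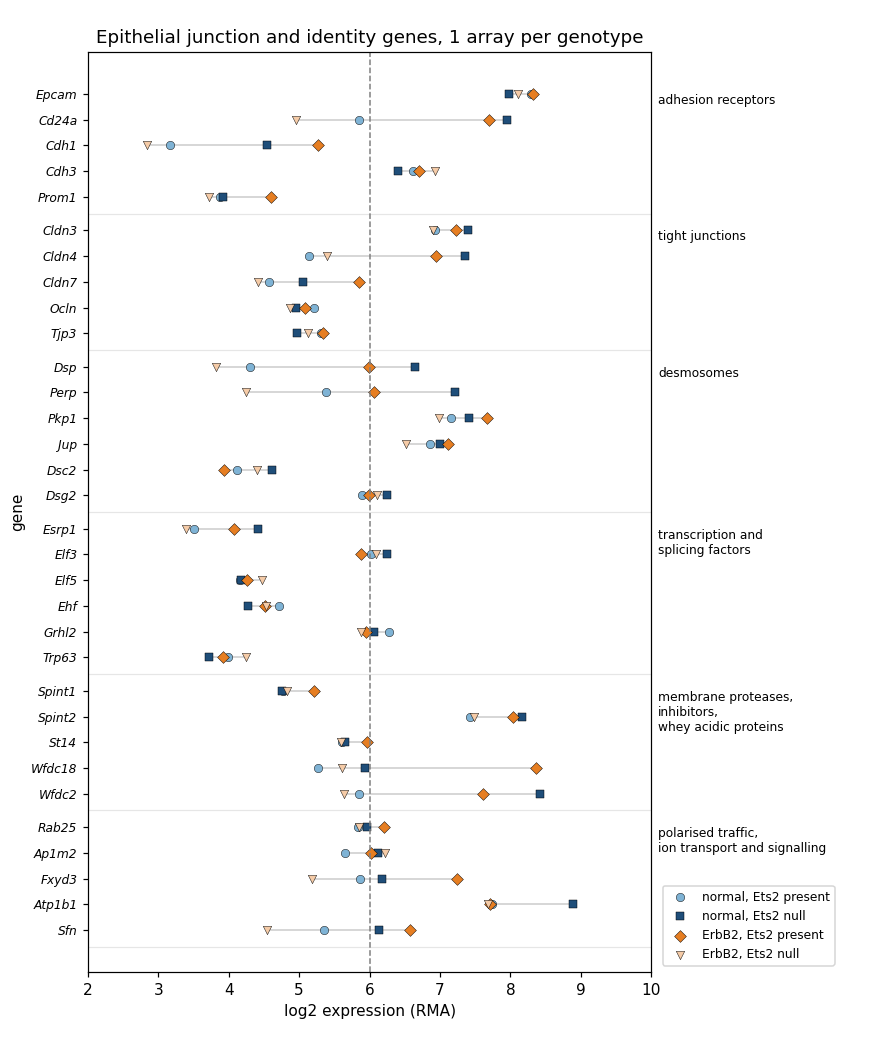
Log2 expression (horizontal axis, RMA) of the 32 genes, grouped by role, with 1 symbol for each of the 4 arrays and the dashed line at log2 6. Dark squares (normal, *Ets2* null) and diamonds (*ErbB2*, *Ets2* present) lie to the right of the other symbols for genes such as *Cd24a*, *Cldn4*, *Dsp* and *Wfdc2*, while the transcription factors stay close together.

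In normal fibroblasts, 4 of the 32 genes were over 4-fold higher without *Ets2*, *Cd24a*, *Cldn4*, *Dsp* and *Wfdc2*, against 0.0824% of all genes measured. At 2-fold, *Atp1b1*, *Cdh1* and *Perp* were added, giving 7 genes against 0.621% of all genes, while none was over 2-fold lower, against 0.357%. In *ErbB2* fibroblasts the direction was the opposite. There, 6 genes were over 4-fold lower without *Ets2*, namely *Cd24a*, *Cdh1*, *Dsp*, *Fxyd3*, *Sfn* and *Wfdc18*, against 0.324% of all genes. At 2-fold, 10 were lower against 1.74% of all genes, with *Cldn4*, *Cldn7*, *Perp* and *Wfdc2* added, and none was higher, against 0.341%. The median difference of the 32 genes was 0.32 in normal and -0.37 in *ErbB2* fibroblasts, where the medians of all genes were -0.00 and 0.04. In normal fibroblasts 24 of the 32 differences were above 0, against 49.4% of all genes. In *ErbB2* fibroblasts 24 were below 0, against 44.2% of all genes. Because the list was drawn up with earlier results known, its shares against all genes, here and below, are descriptions and no test.

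The 2 *Ets2* comparisons share no array, so the genes could be set side by side. Over 2-fold higher in normal and over 2-fold lower in *ErbB2* fibroblasts without *Ets2* were 6 of the 32 genes, *Cd24a*, *Cdh1*, *Cldn4*, *Dsp*, *Perp* and *Wfdc2*, against 41 of all 18194 genes (0.225%). Across the 32 genes the differences of both comparisons ran against each other, with Pearson's r = -0.692 and Spearman's rho = -0.613. In the 16 genes whose higher value was at least log2 6 each time, these were -0.683 and -0.550. These are descriptions across genes, which are not independent replicates, were normalised together and may all follow the same few cultures. A gene can also be placed by asking whether both the normal *Ets2* null and the *ErbB2* *Ets2* present array lay above the other arrays. That held for 18 of the 32 genes, against 14.4% of all genes, and by a margin of over 2-fold for 5 genes, *Cd24a*, *Cdh1*, *Cldn4*, *Dsp* and *Wfdc2*, against 0.126%. Most of the 18 genes were thus ordered this way by less than 2-fold.

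**Figure D2:**
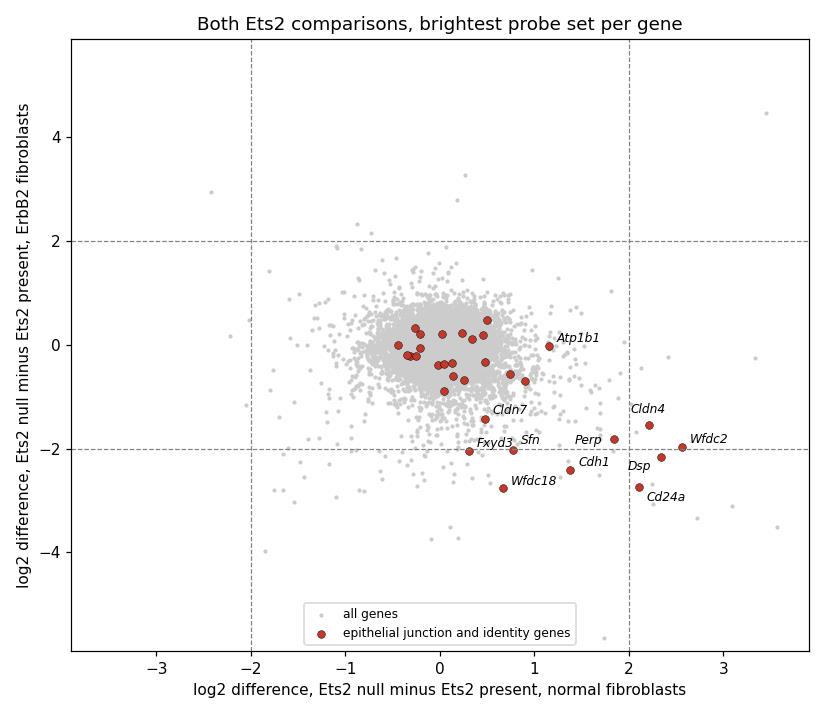
Log2 difference, *Ets2* null minus *Ets2* present, in normal (horizontal) and *ErbB2* fibroblasts (vertical), with grey points for all 18194 genes, red points for the 32 genes described and dashed lines at 4-fold. The 6 genes that crossed over lie in the lower right, *Fxyd3*, *Sfn* and *Wfdc18* lie low near the middle, and *Atp1b1* lies to the right at about 0 on the vertical axis.

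Among the adhesion receptors, *Cd24a*, which encodes a small glycoprotein anchored to the cell surface by a lipid and used to sort mammary epithelial cells, differed most. It read 5.85 in normal cells with *Ets2* and 7.95 without, and 7.69 in *ErbB2* fibroblasts with *Ets2* and 4.95 without. Both arrays above log2 7 lay well apart from both arrays below log2 6, and the differences were 2.10 in normal and -2.74 in *ErbB2* fibroblasts. The other probe sets of *Cd24a* ran the same way, with differences of 2.44 and -2.79 on one and of 1.51 and -1.75 on the other, which stayed under log2 5 throughout.

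*Epcam*, the epithelial cell adhesion molecule, gave a different answer on each of its probe sets. The brighter one, whose name ends in _x_at, read 8.29 on the normal array with *Ets2*, 7.98 on the normal null array, and 8.32 and 8.10 on the corresponding *ErbB2* arrays, so that all arrays lay within 0.34. The dimmer one read 5.38, 7.83, 8.48 and 5.63 in the same order, with differences of 2.45 in normal and -2.85 in *ErbB2* fibroblasts. Such names mark probe sets whose probes may bind other transcripts as well. By the rule of the highest mean *Epcam* was not called. By its other probe set, the one the paper lists for normal fibroblasts, it passed 4-fold in both comparisons. Which of them reads the *Epcam* transcript was not tested.

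*Cdh1*, E-cadherin, the core of epithelial adherens junctions, read 3.17 with and 4.55 without *Ets2* on the normal arrays, and 5.26 with and 2.84 without it on the *ErbB2* arrays. It was high on the same arrays as *Cd24a*, but it stayed under log2 6 on all 4, so its differences of 1.38 and -2.42 are between signals not shown to lie above background. *Cdh3*, P-cadherin, which in the gland is a basal cell protein, lay between 6.40 and 6.92 and differed by -0.21 and 0.22. *Prom1*, a membrane protein of apical protrusions, lay between 3.72 and 4.60, with its highest value in *ErbB2* fibroblasts with *Ets2*.

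The promoters of 4 of these genes are shown because they moved together in both *Ets2* comparisons, on at least 1 probe set of each. *Dsp* passed 4-fold in both on its brightest probe set, whose name, ending in _s_at, marks it as shared among similar transcripts. On its second probe set it did not in *ErbB2* fibroblasts, at -1.62. *Epcam* passed in both on its dimmer probe set. *Cldn4* and *Wfdc2*, added after their values were seen, passed 4-fold in normal fibroblasts and 2-fold in *ErbB2* fibroblasts. Each sequence is the 250 bases before the gene's start, 5′ to 3′ on the gene's strand, from RefSeq for the build GRCm38.p6. They lie at chr17:87635729-87635978 on the plus strand for *Epcam*, chr5:134946935-134947184 on the minus strand for *Cldn4*, chr2:164562465-164562714 on the plus strand for *Wfdc2* and chr13:38151044-38151293 on the plus strand for *Dsp*. Capitals mark the E-box letters CACCTG or their reverse complement CAGGTG, the letters bound by the Snail and Zeb repressors of epithelial genes.
Epcam: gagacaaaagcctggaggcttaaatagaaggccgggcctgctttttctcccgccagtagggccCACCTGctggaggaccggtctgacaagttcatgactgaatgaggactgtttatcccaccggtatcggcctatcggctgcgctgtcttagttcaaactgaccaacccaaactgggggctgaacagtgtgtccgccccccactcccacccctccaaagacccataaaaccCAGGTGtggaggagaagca
Cldn4: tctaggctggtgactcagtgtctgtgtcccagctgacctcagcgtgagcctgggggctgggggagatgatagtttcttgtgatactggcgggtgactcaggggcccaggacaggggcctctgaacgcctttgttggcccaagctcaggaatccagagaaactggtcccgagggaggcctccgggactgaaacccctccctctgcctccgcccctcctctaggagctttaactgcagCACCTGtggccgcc
Wfdc2: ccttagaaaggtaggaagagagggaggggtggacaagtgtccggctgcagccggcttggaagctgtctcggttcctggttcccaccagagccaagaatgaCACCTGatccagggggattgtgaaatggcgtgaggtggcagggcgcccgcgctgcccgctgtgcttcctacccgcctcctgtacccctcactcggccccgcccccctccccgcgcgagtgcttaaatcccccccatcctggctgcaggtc
Dsp: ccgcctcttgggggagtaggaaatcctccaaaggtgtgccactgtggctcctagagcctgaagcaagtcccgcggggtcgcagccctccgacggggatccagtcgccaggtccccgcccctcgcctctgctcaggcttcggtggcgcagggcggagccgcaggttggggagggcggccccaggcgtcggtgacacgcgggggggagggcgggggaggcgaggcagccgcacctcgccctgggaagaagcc

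A match of letters is a description of these windows and not a binding site. The E-box began 187 and 19 bases before the start in *Epcam*, 14 bases before it in *Cldn4* and 150 bases before it in *Wfdc2*. The *Dsp* window held none, and 72.4% of its bases were G or C, against a median of 52.4% over all windows. Promoters were given for 20 of the 32 genes, and 13 of these 20 (65%) held the E-box, against 19.4% of the 27025 genes with a promoter and 19.9% of the measured genes among them. It was found in 7 of the 12 genes for which both the normal *Ets2* null and the *ErbB2* *Ets2* present array lay above the others, and in 6 of the 8 remaining genes. Genes that followed the crossed order and genes that did not therefore both held it. The grainyhead letters AACCNGTT were in 3 of the 20, *Prom1*, *Rab25* and *Sfn*, against 2.00% of all genes and 1.99% of the measured genes. The ETS letters CCGGAAG were in 2 (10%), *Cldn7* and *Spint1*, which lies between the 7.83% of all genes and the 11.8% of the measured genes that held them. Both strands were searched, and no motif contains another.

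Among the tight junction genes, the claudins were higher on the same pair of arrays as *Cd24a*, and *Ocln* and *Tjp3* were not. *Cldn4*, a claudin that seals against sodium in tight epithelia, read 5.14 with and 7.35 without *Ets2* in normal cells, and 6.95 with and 5.39 without it in *ErbB2* cells. It was the only one of the 5 past 2-fold in both comparisons, at 2.21 and -1.55. *Cldn7*, a claudin found along the lateral membrane and known to associate with EPCAM, read 4.57, 5.05, 5.85 and 4.42 in the same order, under log2 6 throughout. Its difference was 0.48 in normal and -1.43 in *ErbB2* fibroblasts. *Cldn3*, another sealing claudin, was above log2 6 on all arrays on its brightest probe set, between 6.90 and 7.40, and differed by only 0.47 and -0.33. Its other 3 probe sets had the same signs, with differences from 0.21 to 0.57 and from -0.71 to -0.45. *Ocln*, occludin, and *Tjp3*, a scaffold protein under the tight junction, stayed between 4.88 and 5.33 and were slightly lower without *Ets2* in both backgrounds, with differences from -0.35 to -0.20.

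Among the desmosome genes, *Dsp* and *Perp* differed by far more than the other 4 on the brightest probe sets. *Dsp*, desmoplakin, which links the desmosome to keratin filaments, read 4.30 with and 6.64 without *Ets2* in normal cells, and 5.99 with and 3.82 without it in *ErbB2* cells. The differences were 2.34 and -2.17, and the latter is between values that both lie under log2 6. Its second probe set gave 2.15 and -1.62, and its last, with all values between 4.12 and 4.55, gave 0.35 and -0.11.

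*Perp*, a membrane protein needed for stable desmosomes, read 5.38, 7.22, 6.06 and 4.24 in the same order, with differences of 1.84 and -1.82. *Perp* was lower by 1.14 on the *ErbB2* *Ets2* null array than on the normal array with *Ets2*. For *Dsp* that difference had the same sign and was smaller, at -0.48. *Pkp1*, plakophilin, and *Jup*, plakoglobin, which bind desmosomal cadherins inside the cell, were above log2 6 everywhere and moved less. *Pkp1* differed by 0.25 and -0.69 and *Jup* by 0.14 and -0.60. On their brightest probe sets the desmosomal cadherins *Dsc2* and *Dsg2* had small differences of 1 sign in both backgrounds. These were 0.50 and 0.48 for *Dsc2* and 0.34 and 0.11 for *Dsg2*. Some dimmer probe sets of *Dsg2* were high on the same arrays as *Dsp*, at levels not shown to lie above background. Of these, the widest read 3.80, 4.62, 4.82 and 3.77, and others differed by -0.64 and -0.60 in *ErbB2* fibroblasts. The remaining dimmer probe sets of *Dsg2* differed there by 0.22 and 0.10.

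**Figure D3:**
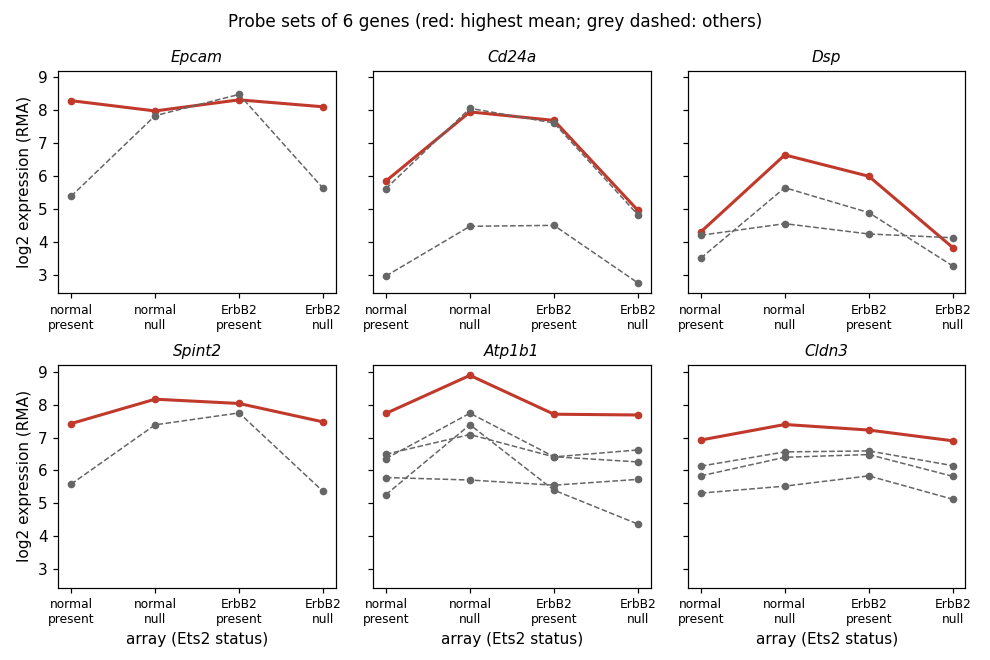
Log2 expression (vertical axis, RMA) on the 4 arrays for each probe set of 6 genes, with the probe set of highest mean in red and the others in grey dashes. The probe sets of *Cd24a* run in parallel, while in *Epcam* and *Spint2* the dimmer probe set dips below log2 6 on the outer arrays where the brighter one changes little.

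The 6 transcription and splicing factors were low and none passed 2-fold in either *Ets2* comparison. Their median differences were -0.09 in normal and 0.11 in *ErbB2* fibroblasts. *Esrp1*, which directs epithelial splicing, alone was high on the same arrays as *Cd24a*, reading 3.51, 4.41, 4.08 and 3.39, all under log2 6. *Grhl2*, a grainyhead factor that maintains epithelial junction genes, lay between 5.88 and 6.27. The epithelial ETS factors *Elf3*, *Elf5* and *Ehf* had differences from -0.44 to 0.24, and *Elf3* was the brightest, at 5.87 to 6.25. *Trp63*, the basal cell factor of the p53 family, stayed between 3.72 and 4.24, with its brightest probe set lowest in normal *Ets2* null fibroblasts.

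Among the membrane proteases and their inhibitors, *Spint2*, which encodes a Kunitz-type inhibitor of membrane serine proteases, again depended on the probe set. The brighter one read 7.42 with and 8.17 without *Ets2* in normal cells and 8.04 with and 7.48 without it in *ErbB2* cells, a 1.67-fold and a 1.47-fold difference in opposite directions. The dimmer one read 5.58, 7.39, 7.75 and 5.36, with differences of 1.80 and -2.39. Both were high on the same pair of arrays. *Spint1*, a related inhibitor, and *St14*, the protease matriptase that both inhibit, lay between 4.76 and 5.96 and had differences from -0.38 to 0.04.

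The whey acidic proteins, small secreted proteins with a disulfide core, held the largest difference in each *Ets2* comparison on the brightest probe sets, though dimmer probe sets of *Epcam* and *Cd24a* went further down in *ErbB2* fibroblasts. *Wfdc2*, a secreted product of many ductal epithelia, read 5.85 with and 8.42 without *Ets2* in normal cells, and 7.61 with and 5.64 without it in *ErbB2* cells. Its difference in normal fibroblasts, 2.57, was the largest of the 32 genes, and that in *ErbB2* fibroblasts was -1.97. *Wfdc18*, which encodes a secreted proteinase inhibitor expressed in the mammary gland, read 5.27, 5.94, 8.37 and 5.61. It was therefore high on the *ErbB2* array with *Ets2* only, with a difference of -2.76 in *ErbB2* and of 0.67 in normal fibroblasts. Its probe set is shared among similar transcripts by its name, which ends in _s_at.

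In the group of polarised traffic and ion transport, *Fxyd3* was, like *Wfdc18*, high mainly on the *ErbB2* array with *Ets2*. *Sfn* was higher on the same pair of arrays as *Cd24a*, and *Atp1b1* had a pattern of its own. *Fxyd3*, a small regulator of the sodium pump, read 5.87, 6.17, 7.24 and 5.18, and differed by 0.30 and -2.05. *Sfn*, stratifin, a binding protein of phosphorylated targets that is made by epithelial cells, read 5.36, 6.13, 6.57 and 4.55, and differed by 0.78 and -2.02. Both were highest in *ErbB2* fibroblasts with *Ets2* and lowest in *ErbB2* *Ets2* null fibroblasts.

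*Atp1b1*, the beta subunit of the sodium pump, read 7.74, 8.89, 7.71 and 7.69 on its brightest probe set, whose name ends in _x_at. There it lay well above log2 6 and stood apart only in normal *Ets2* null fibroblasts. On that probe set it was 2.23-fold higher without *Ets2* in normal fibroblasts and 1.02-fold lower in *ErbB2* fibroblasts. Another probe set stayed between 5.55 and 5.79. The dimmest, the one the paper lists for normal fibroblasts, fell to 4.37 on the *ErbB2* *Ets2* null array. Its other 4 probe sets gave differences from -0.08 to 2.13 in normal and from -1.03 to 0.21 in *ErbB2* fibroblasts, and the dimmest alone was over 2-fold higher in normal and over 2-fold lower in *ErbB2* fibroblasts without *Ets2*. *Rab25*, a small GTPase of epithelial recycling endosomes, and *Ap1m2*, an adaptor subunit that sorts proteins to the basolateral membrane, lay between 5.66 and 6.21. *Rab25* differed by 0.13 and -0.35 and *Ap1m2* by 0.46 and 0.20.

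The 2 arrays on which these genes were high were not alike in which genes led. Among the 18 genes for which both arrays lay above the other arrays, 10 peaked on the *ErbB2* array and 8 on the normal *Ets2* null array. The *ErbB2* array exceeded the normal *Ets2* null array by 2.43 for *Wfdc18*, 1.07 for *Fxyd3*, 0.79 for *Cldn7* and 0.71 for *Cdh1*. The normal *Ets2* null array was the higher one for *Perp*, *Wfdc2*, *Dsp* and *Cldn4*, where the *ErbB2* minus normal differences were -1.16, -0.80, -0.65 and -0.41. *Wfdc18* and *Fxyd3* thus leaned most to the *ErbB2* array, and *Perp* and *Wfdc2* most to the normal *Ets2* null array. On the 2 low arrays, 14 of the 18 genes were lower in *ErbB2* *Ets2* null fibroblasts than in normal fibroblasts with *Ets2*.

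The oncogene comparisons use the same arrays as the *Ets2* comparisons, so they restate the same values and are given side by side only. With *Ets2* present, *Cdh1* and *Wfdc18* were over 4-fold higher in *ErbB2* than in normal fibroblasts, by 2.09 and 3.10, against 0.110% of all genes, and 9 genes passed 2-fold against 0.830%. Without *Ets2*, *Cd24a*, *Dsp*, *Perp* and *Wfdc2* were over 4-fold lower in *ErbB2* than in normal fibroblasts, with differences of -2.997, -2.82, -2.98 and -2.77, against 0.220% of all genes. At 2-fold 9 genes were lower, against 1.51%. The median difference was 0.37 with *Ets2* and -0.27 without, where those of all genes were -0.02 and 0.03.

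Genes of other lists were read beside these values. The 8 keratins, the filament proteins to which desmosomes attach, had median differences of 1.88 in normal and -1.95 in *ErbB2* fibroblasts, and 6 of the 8 were higher on the same pair of arrays. There were 6 over 2-fold higher in normal and 6 over 2-fold lower in *ErbB2* fibroblasts without *Ets2*. *Krt18*, a keratin of simple epithelium, read 5.21, 8.78, 8.52 and 5.01, and *Krt8*, its filament partner, read 6.65, 9.73, 9.25 and 6.15. *Krt14*, a basal cell keratin, read 5.54, 8.27, 8.26 and 4.93. The summed level of the 8 keratins was 9.61, 11.43, 11.04 and 8.82 on the log2 scale, in the order normal with *Ets2*, normal null, *ErbB2* with *Ets2* and *ErbB2* null. Whether epithelial cells in the cultures had a part in the differences was not tested.

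Other junction genes, not in the list of 32, were also read. Of 27 measured, 11 were higher on the same pair of arrays, as were 9 of 18 other epithelial regulators and surface genes, against the 14.4% of all genes given above. Few of them passed 2-fold. Of the 27, such as catenins, zonula occludens and other plakophilins, 1 was over 2-fold higher without *Ets2* in normal fibroblasts and none passed 2-fold in *ErbB2* fibroblasts, with medians of 0.18 and -0.06. The 1 gene was *Pkp2*, a plakophilin, at 8.24, 9.24, 8.9998 and 8.29. The next by size were *Pkp4*, another plakophilin, with differences of 0.40 and -0.60, and *Afdn*, the adherens junction scaffold afadin, with 0.31 and -0.62. Of the 18 other epithelial genes, 2 were over 2-fold higher in normal and 3 over 2-fold lower in *ErbB2* fibroblasts without *Ets2*, with medians of 0.26 and -0.20. *Lamb3*, a chain of the basement membrane laminin of epithelium, read 4.24, 6.27, 5.17 and 4.02. *Cdcp1*, a surface substrate of matriptase, differed by 1.49 and -0.77, and *Itga6*, the integrin that binds laminin, by 0.43 and -1.44.

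Of 12 markers of differentiated luminal cells and milk, 4 were higher on the same pair of arrays as *Cd24a*. None passed 2-fold in normal fibroblasts and only *Pgr*, the progesterone receptor, did in *ErbB2* fibroblasts, being higher without *Ets2*, with medians of 0.06 and 0.06. *Esr1*, the oestrogen receptor, differed by 0.76 and -0.53, and *Aldh1a3*, a retinal dehydrogenase of luminal progenitors, by -0.13 and -0.32. Of 8 basal and myoepithelial markers, 3 of them keratins already counted above, 4 were over 2-fold higher without *Ets2* in normal fibroblasts. These were the keratins *Krt5*, *Krt14* and *Krt17*, and *Myh11*. In *ErbB2* fibroblasts 1 was over 2-fold higher without *Ets2* and 2 were lower, the latter being *Krt14* and *Krt17*. *Krt5*, a basal keratin, differed by 1.68 and -0.83 and *Lgr5*, a stem cell receptor, by -0.54 and 1.26.

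Markers of the other cells of the stroma ran differently. The 17 fibroblast markers had median differences of -0.35 and -0.16 and a summed level between 16.64 and 17.00 on the log2 scale, lowest in normal *Ets2* null fibroblasts. The collagen *Col3a1* differed by -1.13 and -0.21, the proteoglycan *Lum* by -1.06 and -1.03 and the membrane protease *Fap* by -0.98 and 0.17. The 9 mesenchymal transcription factors and cadherins, all above log2 6 on all arrays, had none past 2-fold. Among them the E-box repressors *Snai1* and *Snai2* differed by -0.89 and -0.32 and by -0.05 and 0.69, and *Cdh11*, a mesenchymal cadherin, by -0.74 and 0.08.

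Of 14 myeloid markers, 1 was over 2-fold lower without *Ets2* in normal and 8 in *ErbB2* fibroblasts, and their summed level was 13.37, 13.08, 14.29 and 12.94. *Ctss*, a lysosomal protease, read 10.22, 9.94, 11.49 and 8.99, *Cd68*, a lysosomal membrane protein, differed by 0.03 and -2.35, and *Tyrobp*, a myeloid signalling adaptor, by -0.31 and -2.22. *Ctss*, *Cd68* and *Tyrobp* were thus highest in *ErbB2* fibroblasts with *Ets2*, as were *Wfdc18* and *Fxyd3*. None of *Ctss*, *Cd68* and *Tyrobp* was raised by more than 0.03 in normal *Ets2* null fibroblasts. Of the 14 myeloid markers, 3 were higher on the same pair of arrays as *Cd24a*, against 14.4% of all genes. Among them *Csf1r* differed by 0.59 and -0.98, while the median of the 14 in normal fibroblasts was -0.29. Of 8 endothelial markers, 2 were over 2-fold lower without *Ets2* in each background, among them *Emcn*, endomucin, at -1.18 and -1.02. *Pecam1* differed by -1.38 and -0.48 and *Cdh5*, the endothelial cadherin, by -0.72 and -0.84. The summed endothelial level was 10.51, 10.04, 10.09 and 9.73. The part of these cells in the results was not tested.

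**Figure D4:**
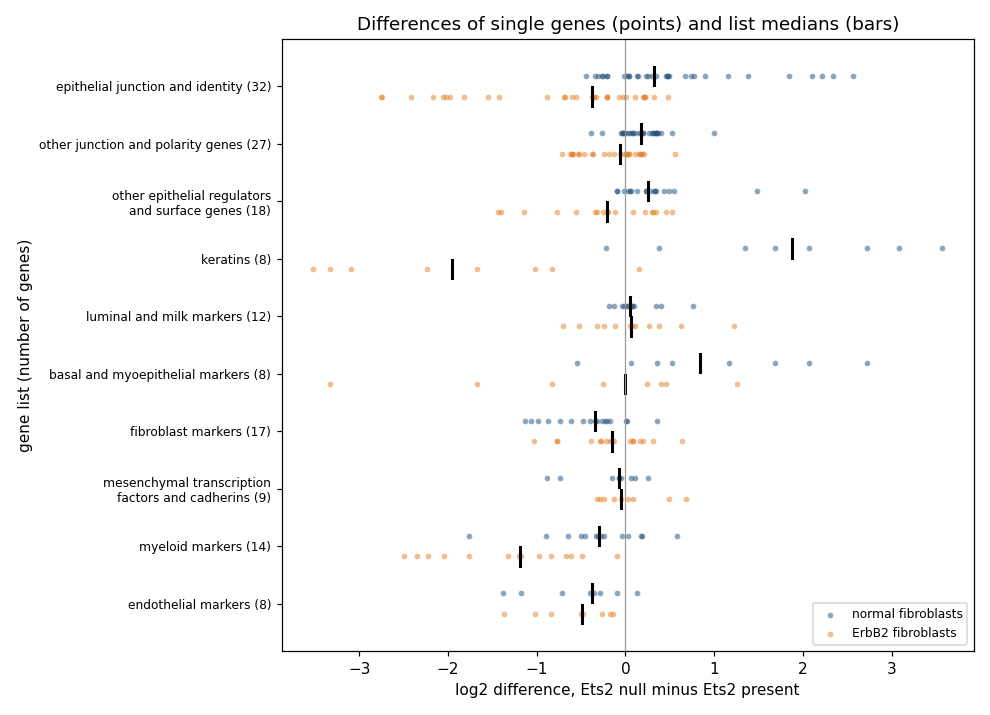
Log2 difference, *Ets2* null minus *Ets2* present (horizontal axis), of single genes (points) in normal (blue) and *ErbB2* fibroblasts (orange), by gene list, with black bars at the list medians. The junction and identity genes and the keratins extend to the right in normal and to the left in *ErbB2* fibroblasts, whereas the myeloid markers lie mostly to the left in *ErbB2* fibroblasts, with 8 of 14 past 2-fold, against 1 of 14 in normal fibroblasts.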

How the data were processed

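RNA of 4 cultures, 1 per genotype, had been hybridised to Affymetrix mouse genome arrays. The authors deposited log2 values made with RMA, which equalises the distribution of the arrays, so a shift common to most genes is lost. No source used here gives the software version or the probe definitions. Of 45101 probe sets, 34958 had 1 symbol, 932 had several and 9211 had none in the platform annotation, and only the first were named. Differences of log2 values were taken with pandas 2.3.3 and numpy 2.4.6 (Python 3.11.15) and drawn with matplotlib 3.10.9. A call was a log2 difference over 2. The steps were tested on simulated data.

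The genes and lists were chosen with earlier results of these data known. Values on all arrays are given for genes past 4-fold on any probe set in an *Ets2* comparison or reaching log2 8, and of other lists for the 3 genes with the largest differences that reach log2 6, while *Perp*, *Cldn7* and *Esrp1* were added after their values were seen. Of 129 other list entries, 6 were not measured. Summed levels are sums of unlogged values. The alternatives were other thresholds, probe sets, a floor at log2 6, median centring, quantile normalisation, loess (statsmodels 0.14.6, span 0.4) and means. The *PyMT* arrays were not analysed here.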

Additional observations from a re-analysis of the deposited data

Results flagged for a closer look

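For 6 genes the change with *Ets2* status was over 2-fold in both backgrounds and of opposite sign. The log2 difference in *ErbB2* fibroblasts minus that in normal fibroblasts was -4.84 for *Cd24a*, -4.54 for *Wfdc2*, -4.51 for *Dsp*, -3.80 for *Cdh1*, -3.77 for *Cldn4* and -3.66 for *Perp*. With 1 array per genotype the difference was not tested.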

How the results depend on the processing

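Median centring, renewed quantile normalisation and loess moved none of the 64 values of single genes by more than the spread over all genes, while the mean of a gene's probe sets moved 11 of 64, the probe set of largest range 11 of 64, and leaving out probe sets that may bind other transcripts moved 6 and left 54. With the largest range, *Epcam* in normal fibroblasts went from -0.31 to 2.45 and *Dsg2* in *ErbB2* fibroblasts from 0.11 to -1.05. No count, median or called value changed direction under any alternative run. The threshold changed the counts. At 2-fold the genes past it numbered 7 in normal and 10 in *ErbB2* fibroblasts for *Ets2*, and 9 with and 9 without *Ets2* for the oncogene, and at 8-fold 0, 0, 1 and 0. Genes crossing over numbered 6 at 2-fold, 2 at 4-fold (*Cd24a* and *Dsp*) and 0 at 8-fold. With the probe set of largest range in place of the brightest, 4 genes passed 4-fold in the oncogene comparison with *Ets2* and 7 without, the median in *ErbB2* fibroblasts was -0.70, and 9 genes crossed over, *Epcam*, *Spint2* and *Atp1b1* among them. With a floor at log2 6, 4 genes in place of 6 were over 4-fold lower without *Ets2* in *ErbB2* fibroblasts, since *Cdh1* and *Dsp* were lost. In the oncogene comparison with *Ets2*, 1 gene passed with this floor, since *Cdh1* was lost. The median of the oncogene comparison without *Ets2* was then -0.59, and 4 genes crossed over. Means in place of medians were 0.56, -0.77, 0.64 and -0.69 in the order of the counts. Without probe sets that may bind other transcripts, *Wfdc18* and *Jup* were lost and *Epcam* joined the genes crossing over. *Dsp* then fell under 4-fold in *ErbB2* fibroblasts, at -1.62. No paired analysis was possible because each genotype had 1 array. The number of arrays limits precision, since differences between cultures of 1 genotype cannot be told apart from those between genotypes, and values under log2 6 lie close to background.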

Other observations

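Over all genes, 23 had both the normal *Ets2* null and the *ErbB2* *Ets2* present array above the other arrays by more than 2-fold. They were 5 of the 32 junction and identity genes, 5 keratins and 13 others. The latter were *Clu*, *Serpinb2*, *Fabp7*, *Tslp*, *Fgf13*, *Sbspon*, *Asic3*, *Nppb*, *Serpinb5*, *Fhl1*, *Id2*, *Fst* and *Prune2*. *Clu*, the secreted chaperone clusterin, read 7.81 with and 10.07 without *Ets2* in normal cells and 10.16 with and 7.09 without it in *ErbB2* cells, differences of 4.78-fold and 8.38-fold in opposite directions. *Serpinb5*, maspin, an epithelial serpin, read 4.76, 6.12, 5.95 and 4.49. *Tslp*, a cytokine of epithelial cells and fibroblasts, read 6.47, 8.20, 9.87 and 4.22. *Fhl1*, a LIM protein of muscle and fibroblasts and the brightest of the 13, read 11.17, 12.43, 12.24 and 10.82. *Id2*, an inhibitor of helix-loop-helix factors, read 8.55, 9.59, 10.13 and 8.44, and *Fst*, the activin antagonist follistatin, read 8.64, 9.66, 9.70 and 8.05. The same pair of arrays was therefore also high for genes outside the 32 and the keratins, which were named after their values were seen. Which cells of the cultures expressed them was not tested.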
